A study of Homo sapiens with 12 samples.

Results

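The VEGF system was followed through 10 genes in human embryoid bodies depleted of METTL14. They were the receptors KDR, FLT1 and FLT4, the co-receptors NRP1 and NRP2, the ligands VEGFA, VEGFB and VEGFC, and the endothelial genes PECAM1 and CDH5. The genes were listed by family or cell type, and the set was chosen by the knockdown level of KDR, which was lower than in the controls in earlier results from the same data. The differences of KDR between knockdown and control are therefore a description without a test. The 10 genes stand among 65969 identifiers in the deposited table, and all 10 were among the 24898 genes that passed the filter on low counts.

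VEGF ligands act through receptor tyrosine kinases on the cell surface. VEGFA binds KDR (VEGFR2), which carries most of its growth signal, and FLT1 (VEGFR1), which binds it tightly but signals weakly. VEGFB binds FLT1, VEGFC binds FLT4 (VEGFR3) and KDR, and the neuropilins NRP1 and NRP2 bind both VEGFs and class 3 semaphorins. KDR marks endothelium and the mesoderm that gives rise to blood and vessels, but it is also known in pluripotent and neural cells, so its RNA alone does not name a cell type.

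Total RNA was sequenced from embryoid bodies, which are aggregates of differentiating stem cells, of the established human embryonic stem cell lines H1 and MEL1. All 12 libraries carried a doxycycline-inducible short hairpin RNA, so the controls share the vector and the drug. The aggregates held 500 cells per microwell and received doxycycline at 2 µg/ml over 10 days. The control hairpin SCR was in 2 H1 libraries and 1 MEL1 library. The hairpins KD1, KD2 and KD3 against METTL14 were each in 2 H1 libraries, and MEL1 had 2 libraries of KD1 and 1 of KD2. METTL14 works with METTL3 in the enzyme that places N6-methyladenosine (m6A), a methyl mark, in RNA. The labels name no separate cultures or clones, so p-values measure only the spread between these libraries, which may be technical.

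Levels are given as CPM, estimated counts scaled to a common library size with TMM factors (trimmed mean of M-values). The MEL1 SCR library held 15963241 estimated counts, against 36609628 to 43508287 in the other libraries, and every MEL1 knockdown value is set against that library. METTL14 was at 29.8 and 43.8 CPM in H1 SCR and at 8.89 to 17.7 CPM in the 6 H1 knockdown libraries, while the MEL1 SCR library had 49.9 CPM and the 3 MEL1 knockdown libraries 5.94 to 8.95 CPM. The MEL1 KD2 library stood apart from the MEL1 KD1 libraries, with the pluripotency factor POU5F1 at 240 CPM against 798 and 879 CPM. Without MEL1 KD2, edgeR called 0 of the 9 genes other than KDR over both lines, and only 122 genes of the whole table. Adjusted p for the 9 ran from 0.11 for NRP2 to 0.734 for FLT1 (edgeR). The comparisons between the lines could not be fitted without that library. The neural regulator PAX6 was at 95.8 to 224 CPM in H1 and at 0.204 to 2.92 CPM in MEL1.

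The start regions of KDR and FLT1 are printed because both receptors bind VEGFA, and their levels at matched treatments differed between the lines in opposite directions. The KDR difference was small, at -0.21 in log2 terms, and its call was kept in 7 of 16 alternatives. Each is the 250 bases before the gene's start in RefSeq on GRCh38.p14, read 5′ to 3′ on the minus strand, at chr4:55125596-55125845 for KDR and chr13:28495129-28495378 for FLT1. The RefSeq table held 5 of the 10 genes. Capitals mark the core letters of ETS factor sites, GGAA or on the other strand TTCC, and the GC box, GGGCGG or on the other strand CCGCCC.
KDR: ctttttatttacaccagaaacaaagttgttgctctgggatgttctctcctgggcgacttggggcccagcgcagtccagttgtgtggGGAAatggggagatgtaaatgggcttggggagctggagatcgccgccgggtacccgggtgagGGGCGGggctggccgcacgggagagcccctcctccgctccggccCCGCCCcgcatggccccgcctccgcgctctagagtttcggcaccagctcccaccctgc
FLT1: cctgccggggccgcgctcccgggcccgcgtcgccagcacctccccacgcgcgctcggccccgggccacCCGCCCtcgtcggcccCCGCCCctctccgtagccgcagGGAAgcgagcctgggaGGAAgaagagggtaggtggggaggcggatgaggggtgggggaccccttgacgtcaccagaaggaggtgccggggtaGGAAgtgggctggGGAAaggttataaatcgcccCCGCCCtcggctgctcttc
The KDR window held 1 ETS core and 2 GC boxes, and the FLT1 window held 4 ETS cores and 3 GC boxes. Of 35116 start regions of the same length, 92.7% held at least 1 ETS core and 42.6% at least 1 GC box, so these letters are common and name no bound factor.

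The letters GGACT, a favoured form of the m6A motif, were counted on the coding strand because METTL14 works on such sites. No m6A was measured in these libraries. The KDR coding sequence of 4068 bases in GENCODE release 29 held GGACT 6 times, or 1.47 per kb, against a median of 0.995 per kb over 16191 genes. The matches that lie with their flanks in 1 exon are shown as 25 bases each on GRCh38, minus strand, with the match itself in capitals. The match without its own line, at coding position 171, has flanks in exons 2 and 3. Its letters stand uncapitalised in the exon 3 window.
KDR exon 3, chr4:55118771-55118795: agagggacttGGACTggctttggcc
KDR exon 11, chr4:55106742-55106766: gaagtgtggaGGACTtccagggagg
KDR exon 22, chr4:55092681-55092705: atctgtataaGGACTtcctgacctt
KDR exon 26, chr4:55088944-55088968: agaccatgctGGACTgctggcacgg
KDR exon 27, chr4:55087684-55087708: agaggattctGGACTctctctgcct
NRP2 also held 6 matches (2.15 per kb), FLT1 held 7 (1.74 per kb), CDH5 held 1 (0.425 per kb), and VEGFA held 0 in 1236 coding bases. A match of these letters does not show that the RNA is methylated there.

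Among the receptors, KDR (ENSG00000128052, chromosome 4, 55078259 to 55125595 in GENCODE release 29 on GRCh38) was at 153 and 157 CPM in the H1 SCR libraries. It was at 82.1 and 88.2 CPM with KD1, 59.6 and 65.3 CPM with KD2, and 79.4 and 70.2 CPM with KD3. The 6 H1 knockdown libraries all lay below both controls, at 47.9% ± 7.03 (SD, n = 6) of the SCR mean. In MEL1 it was 99.0 CPM with SCR, 59.0 and 58.0 CPM with KD1, and 91.9 CPM with KD2. MEL1 KD2 sat just below its control, and both KD1 libraries were far below it.

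The log2 difference of KDR between knockdown and SCR was -0.89 (SE 0.16) over both lines and -1.07 (SE 0.08) for the mean of the H1 hairpins. These differences chose the gene and carry no test. Without MEL1 KD2 the value over both lines was -0.97, and without MEL1 SCR it was -1.05. All 9 knockdown libraries were below the SCR libraries of their line with TMM and with median-of-ratios scaling, and 8 of 9 with total counts. With total counts MEL1 KD2 was at 93.9 CPM and MEL1 SCR at 91.1 CPM.

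By group mean, KDR was highest in H1 SCR at 155 CPM, followed by MEL1 SCR at 99.0, MEL1 KD2 at 91.9, H1 KD1 at 85.1, H1 KD3 at 74.8, H1 KD2 at 62.5 and MEL1 KD1 at 58.5 CPM. In H1 KDR was at 82.1 to 88.2 CPM with KD1, 70.2 to 79.4 CPM with KD3 and 59.6 to 65.3 CPM with KD2, and this order is a description. In the F test over the 3 hairpins, which no SCR library enters, KDR was not called (adjusted p = 0.0872, edgeR). It passed in 2 of 19 alternatives, with adjusted p up to 0.317. Averaged over SCR, KD1 and KD2, the KDR level was lower in MEL1 than in H1, with a log2 difference of -0.21 (SE 0.07, adjusted p = 0.0319, edgeR). That call was lost with DESeq2, with median-of-ratios scaling and with no filter. It was also lost without MEL1 KD1 replicate 1 or 2, H1 SCR replicate 1 or 2, H1 KD1 replicate 2 or H1 KD2 replicate 2, with adjusted p up to 0.0798 (edgeR).

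**Figure D1:**
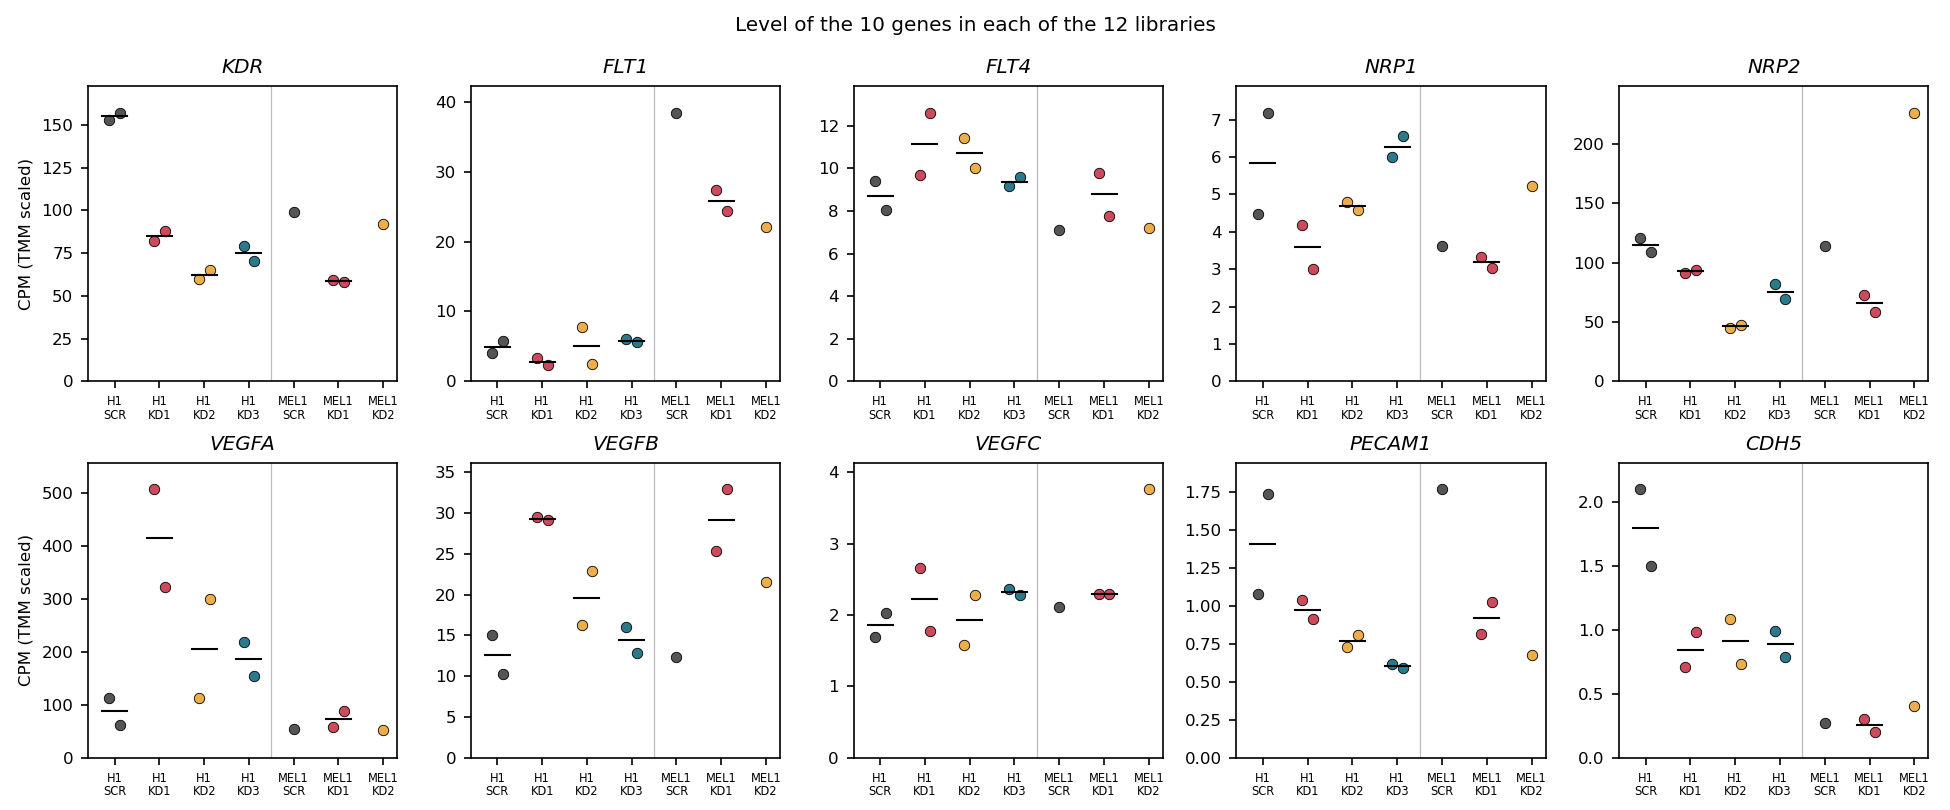
Level of each gene (CPM after TMM scaling, own axis from 0 in each panel) in the 12 libraries, by cell line and hairpin; points are libraries and lines are means of groups with 2 libraries. The 6 H1 knockdown libraries of KDR lie between 59.6 and 88.2 CPM, below both H1 controls, and NRP2 in MEL1 KD2 stands at 226 CPM, above every other library.

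FLT1 (chromosome 13, 28300344 to 28495145), the other VEGFA receptor, was low in H1 and higher in MEL1. It was at 4.12 and 5.78 CPM in H1 SCR, 3.29 and 2.39 CPM with KD1, 7.77 and 2.49 CPM with KD2, and 6.02 and 5.68 CPM with KD3, so these groups overlapped. The MEL1 values were 38.4 CPM with SCR, 27.4 and 24.3 CPM with KD1, and 22.1 CPM with KD2, which put all 3 knockdown libraries below the 1 control. At matched treatments the log2 level of FLT1 was 2.75 higher in MEL1 (SE 0.28, adjusted p = 5.12e-05, edgeR), in all 16 alternatives run.

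With knockdown over both lines FLT1 was not called (log2 -0.30, SE 0.31, adjusted p = 0.683, edgeR), and the interval of 2 SE on either side ran from -0.92 to 0.32. Of the 9 genes other than KDR, 0 were called in that comparison by edgeR, where 0.213% of all tested genes were called. At an unadjusted p under 0.05 there were 4 of 9, and DESeq2 called 2, VEGFB and PECAM1. Of all 24898 tested genes 3918 were at that unadjusted p, and DESeq2 called 1246.

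FLT4 (chromosome 5, 180601506 to 180649624), known as the receptor of lymphatic endothelium, was at 9.38 and 8.03 CPM in H1 SCR and at 9.16 to 12.6 CPM in the H1 knockdown libraries. The MEL1 range was 7.09 CPM in the SCR library and 7.18 to 9.80 CPM in the knockdown libraries. It was not called over both lines (log2 0.25, SE 0.16, adjusted p = 0.484, edgeR). Its level was lower in MEL1 by a log2 difference of -0.41 (SE 0.14, adjusted p = 0.0281, edgeR). That call was lost with DESeq2 and without MEL1 KD1 replicate 2, H1 SCR replicate 1, H1 KD1 replicate 2 or H1 KD2 replicate 1, and with the GC and length trend removed the difference was -0.04 (adjusted p = 0.789, edgeR).

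Of the co-receptors, NRP2 (chromosome 2, 205681990 to 205798133) was lower in every H1 knockdown library, and lowest with KD2. It was at 121 and 109 CPM with SCR, 91.2 and 94.0 CPM with KD1, 45.3 and 47.4 CPM with KD2, and 81.8 and 69.2 CPM with KD3, with no overlap between knockdown and SCR. Averaged over the hairpins NRP2 fell by 0.74 in log2 terms (SE 0.10, adjusted p = 0.0041, edgeR). This call held in all 19 alternatives run, with adjusted p up to 0.0316. It was the 1 gene called among the 9 other than KDR, where 7.16% of all tested genes were called, 2.23% as higher and 4.93% as lower. DESeq2 called 3 of the 9, and 2696 of all 24898 tested genes.

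By hairpin NRP2 fell by 1.31 with KD2 (SE 0.13, adjusted p = 0.00143), where 1.54% of tested genes were called, and by 0.61 with KD3 (SE 0.13, adjusted p = 0.0365, edgeR), where 2.98% were. With KD1 the log2 difference was -0.31 (SE 0.13, adjusted p = 0.157, edgeR). The KD3 call was lost when any 1 of the 8 H1 libraries was left out, with adjusted p from 0.0542 to 0.253.

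The NRP2 level differed between the H1 hairpins (adjusted p = 0.0079, edgeR F test over the 3 hairpins), as 1 of the 9 genes other than KDR, against 3.54% of all tested genes. DESeq2 called 2 of the 9 there, and 2224 of all 24898 tested genes. It was lower with KD2 than with KD1, with a log2 difference of -1.0 (SE 0.13, adjusted p = 0.00772, edgeR), where 0.851% of tested genes were called. It was higher with KD3 than with KD2 by 0.70 (SE 0.13, adjusted p = 0.0392, edgeR), where 1.01% were called. Without H1 KD1 replicate 2 the adjusted p over the 3 hairpins was 0.0537. METTL14 was at 11.1 and 11 CPM with KD1, 17.7 and 14.8 CPM with KD2, and 8.89 and 13.5 CPM with KD3, and was not called between hairpins (adjusted p = 0.285, edgeR).

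In MEL1 the NRP2 libraries split by hairpin, with 114 CPM for SCR, 73.1 and 58.1 CPM for KD1, and 226 CPM for KD2. KD1 was below the control and KD2 far above it, opposite to KD2 in H1. Over both lines NRP2 was not called (log2 -0.46, SE 0.37, adjusted p = 0.585, edgeR), and without MEL1 KD2 the value was -0.72 (SE 0.20, adjusted p = 0.11, edgeR). The knockdown effect in MEL1 minus that in H1 was 0.91 (SE 0.20, adjusted p = 0.0621, edgeR), short of the threshold. It passed with DESeq2 (adjusted p = 0.00912), with no filter and with the GC and length trend removed, and its adjusted p was at most 0.155 over the 16 alternatives. Averaged over SCR, KD1 and KD2, the NRP2 level was 0.59 higher in log2 terms in MEL1 (SE 0.09, adjusted p = 0.000183, edgeR). This held in all 16 alternatives run, but none of them left out MEL1 KD2, without which the comparison could not be fitted. By group mean NRP2 was at 114 CPM in MEL1 and 115 CPM in H1 with SCR, and at 65.6 and 92.6 CPM with KD1. Only with KD2 was it higher in MEL1, at 226 CPM in 1 library against 46.3 CPM in H1.

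NRP1 (chromosome 10, 33177492 to 33336262), the co-receptor best known with KDR, was at 4.48 and 7.18 CPM in H1 SCR and 3.0 to 6.57 CPM in the H1 knockdown libraries. MEL1 SCR was at 3.61 CPM and the MEL1 knockdown libraries at 3.04 to 5.22 CPM. Knockdown and control overlapped in both lines. It was not called over both lines (log2 -0.16, SE 0.26, adjusted p = 0.82, edgeR) or between the lines (log2 -0.23, SE 0.18, adjusted p = 0.311, edgeR).

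Among the ligands, VEGFA (chromosome 6, 43770184 to 43786487) varied widely between libraries of the same hairpin. It was at 113 and 62.4 CPM in H1 SCR, 506 and 322 CPM with KD1, 112 and 299 CPM with KD2, and 218 and 154 CPM with KD3. MEL1 had 54.2 CPM with SCR, 59.1 and 87.8 CPM with KD1, and 53.0 CPM with KD2. In H1, 5 of 6 knockdown libraries were above both controls and 1, of KD2, lay between them.

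For VEGFA the log2 difference of the H1 average was 1.52 (SE 0.49) and missed the threshold (adjusted p = 0.132, edgeR). It was 1.15 without H1 SCR replicate 2 and 2.02 without H1 SCR replicate 1, and it passed with DESeq2 (adjusted p = 0.0152), with no filter and without H1 KD2 replicate 1 (adjusted p = 0.0431, edgeR). Without H1 SCR replicate 2 the adjusted p was 0.464, the highest of the 19 alternatives. With KD1 the value was 2.24 (SE 0.57, adjusted p = 0.0595, edgeR), and over both lines it was 1.12 (SE 0.46, adjusted p = 0.261, edgeR). VEGFA was lower in MEL1 than in H1 at matched treatments by a log2 difference of -1.72 (SE 0.40, adjusted p = 0.0127, edgeR), in all 16 alternatives run.

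VEGFA is a classic target of the hypoxia-inducible factors, and most of the other genes listed for that response differed between libraries in a similar way. ADM, a vasodilator peptide, was at 23.1 and 20.2 CPM in H1 SCR, 94.4 and 63.1 CPM with KD1, 28.1 and 52.3 CPM with KD2, and 42.4 and 25.6 CPM with KD3. ANKRD37 was at 4.33 and 2.49 CPM in H1 SCR, 51.3 and 24.8 CPM with KD1, 3.30 and 24.7 CPM with KD2, and 12.5 and 7.21 CPM with KD3. In both genes H1 KD2 replicate 1 was low and replicate 2 high, as for VEGFA. The glucose transporter SLC2A1 showed the same split, at 825 and 1650 CPM in the H1 KD2 libraries. CA9, a carbonic anhydrase used as a hypoxia marker, did not, with 0.385 and 0.254 CPM with KD2 beside 0.666 and 0.29 CPM in H1 SCR, 1.24 and 0.586 CPM with KD1 and 0.698 and 0.372 CPM with KD3.

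Of 10 hypoxia genes listed, 8 had a positive log2 difference in the H1 average, with a list median of 1.08 against 0.01 over all tested genes. PDK1, a kinase that holds pyruvate back from mitochondria, was the 1 gene called, where 7.16% of all tested genes were, and rose by 1.29 in log2 terms (SE 0.23, adjusted p = 0.0164, edgeR). The PDK1 call was lost without H1 SCR replicate 2 (log2 1.04, adjusted p = 0.136, edgeR) and with the GC and length trend removed (log2 1.09, adjusted p = 0.132, edgeR). Over both lines 0 of the 10 were called by edgeR, 5 had an unadjusted p under 0.05 and DESeq2 called 4. Of all 24898 tested genes 3918 were at that unadjusted p, and DESeq2 called 1246. The factor genes had negative values, -0.15 for HIF1A and -0.37 for EPAS1, and neither was called (adjusted p = 0.696 and 0.353, edgeR). The summed level of the list was 777 to 1123 CPM in H1 SCR and 1256 to 2897 CPM in the H1 knockdown libraries. The MEL1 sums were 723 CPM in the SCR library and 1070 to 1455 CPM in the knockdown libraries. The part of this response in the VEGFA level was not tested.

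**Figure D2:**
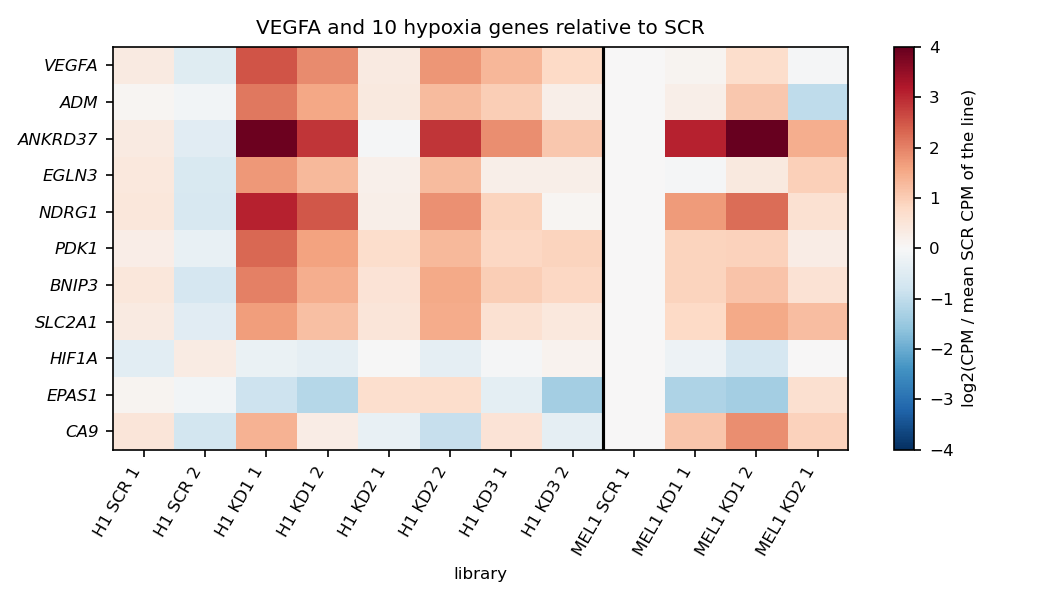
Level of VEGFA and 10 hypoxia genes in each library, as log2 of CPM over the mean SCR CPM of its line (colour, red higher and blue lower, saturating at 4). Among the H1 libraries VEGFA, ADM, ANKRD37 and NDRG1 are all highest in KD1 replicate 1, where VEGFA is at 506 CPM, and pale in KD2 replicate 1, where it is at 112 CPM.

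VEGFB (chromosome 11, 64234538 to 64238793), a ligand of FLT1, was at 15 and 10.3 CPM in H1 SCR, 29.5 and 29.1 CPM with KD1, 16.3 and 22.9 CPM with KD2, and 16.0 and 12.9 CPM with KD3. The MEL1 levels were 12.4 CPM with SCR, 25.4 and 32.9 CPM with KD1, and 21.5 CPM with KD2. The KD1 libraries were the highest in both lines, and KD3 overlapped the H1 controls. With KD1 in H1 it rose by 1.21 in log2 terms (SE 0.22, adjusted p = 0.00978, edgeR), where 11.1% of all tested genes were called. That call was lost without H1 SCR replicate 2 (adjusted p = 0.0802), H1 KD1 replicate 1 (0.0744) or H1 KD1 replicate 2 (0.0606, edgeR).

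In the F test over the H1 hairpins VEGFB was not called (adjusted p = 0.0596, edgeR). That test passed in 6 of 19 alternatives, with adjusted p up to 0.27. In the pairwise comparison VEGFB was lower with KD3 than with KD1, with a log2 difference of -1.02 (SE 0.22, adjusted p = 0.0297, edgeR). For that pair 4.63% of tested genes were called. In the H1 average it was 0.68 (SE 0.19, adjusted p = 0.0543, edgeR) and passed in 6 of 19 alternatives, with adjusted p up to 0.358. Over both lines it was not called (log2 0.85, SE 0.26, adjusted p = 0.138, edgeR), and DESeq2 called it (adjusted p = 0.0286), within a range of 0.0148 to 0.525 over the alternatives. Between the lines it was not called (log2 0.03, SE 0.15, adjusted p = 0.89, edgeR), but it was with the GC and length trend removed (log2 0.47, adjusted p = 0.000704, edgeR).

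VEGFC (chromosome 4, 176683538 to 176792727), a ligand of FLT4, was at 1.69 and 2.03 CPM in H1 SCR, 1.58 to 2.66 CPM in the H1 knockdown libraries and 2.11 to 3.76 CPM in MEL1. It was not called over both lines (log2 0.27, SE 0.25, adjusted p = 0.639, edgeR). The other ligands of the family, PGF and VEGFD, together summed to 1.98 to 4.97 CPM, and 0 of 2 were called over both lines or in the H1 average by edgeR, at an unadjusted p under 0.05 or by DESeq2.

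Both endothelial genes were present at low counts. PECAM1 (chromosome 17, 64319415 to 64413776), an adhesion molecule of endothelial junctions, had 23 to 72 estimated counts in a library. It was at 1.08 and 1.74 CPM in H1 SCR, 1.04 and 0.914 CPM with KD1, 0.728 and 0.807 CPM with KD2, and 0.618 and 0.595 CPM with KD3. MEL1 had 1.77 CPM with SCR, 0.818 and 1.03 CPM with KD1, and 0.675 CPM with KD2. All 9 knockdown libraries lay below the controls of their line, the closest at 1.04 against 1.08 CPM. It was not called over both lines (log2 -0.92, SE 0.28, adjusted p = 0.137, edgeR), and DESeq2 called it with -0.93 (adjusted p = 0.0388), within a range of 0.0388 to 0.559 over the alternatives.

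CDH5 (chromosome 16, 66366622 to 66404786), the cadherin of endothelial junctions, was at 2.10 and 1.5 CPM in H1 SCR, 0.708 and 0.984 CPM with KD1, 1.09 and 0.738 CPM with KD2, and 0.994 and 0.793 CPM with KD3. In MEL1 it rested on 4 to 18 estimated counts and was at 0.273 CPM in the control and 0.201 to 0.405 CPM in the knockdown libraries. The H1 groups did not overlap and the MEL1 libraries lay on both sides of the control. It was not called over both lines (log2 -0.77, SE 0.32, adjusted p = 0.257, edgeR) or in the H1 average (log2 -1.02, SE 0.32, adjusted p = 0.0818, edgeR), and it passed in the H1 average with the GC and length trend removed (adjusted p = 0.0467, edgeR, in a range of up to 0.395).

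Whether endothelial genes account for the lower KDR was approached by setting the levels side by side. In the H1 knockdown libraries PECAM1 was at 55.6% ± 12.2 and CDH5 at 49.2% ± 8.81 of the SCR mean (SD, n = 6), beside 47.9% ± 7.03 for KDR. In MEL1 the shares were 47.5% ± 10.2 for PECAM1, 112% ± 37.4 for CDH5 and 70.3% ± 19.5 for KDR (SD, n = 3). From the KD1 libraries of MEL1 by themselves, a setting added after the values were seen, the shares were 52.2% ± 8.56 for PECAM1, 93.1% ± 27.5 for CDH5 and 59.0% ± 0.707 for KDR (SD, n = 2). Among the MEL1 knockdown libraries KD2 had the lowest PECAM1 and the highest KDR. That PECAM1 order rests on 1 KD2 library with 30 estimated counts, beside 32 and 36 in the KD1 libraries, so it is weak. Per kilobase of the longest transcript, the level in H1 SCR was 25.5 CPM per kb for KDR, 0.436 for CDH5 and 0.206 for PECAM1. In a bulk sample, fewer cells of a type and less RNA per cell cannot be told apart.

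A list of 21 endothelial markers had a summed level of 61.3 and 56.1 CPM in H1 SCR. The sums were 57.6 and 58.9 CPM with KD1 and 61.1 and 57.2 CPM with KD2, inside the control range, and 45.0 and 36.4 CPM with KD3, below it. KDR was lowest with KD2. In MEL1 the sum was 105 CPM with SCR, 99.0 and 120 CPM with KD1, and 161 CPM with KD2, where VWF, the clotting factor carrier of endothelium, was 91.0 CPM. In each library 10 to 14 of the 21 markers were below 1 CPM and 0 to 3 were at 0. PECAM1 and CDH5 had counts in every library, and ROBO4 was at 0 in 7 of the 12. EGFL7, a secreted endothelial factor, was at 22.1 and 18.5 CPM in H1 SCR and 11.9 to 24.0 CPM with knockdown. In MEL1 EGFL7 was at 14.4 CPM with SCR, 28.3 and 33.0 CPM with KD1, and 23.3 CPM with KD2.

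The sum is led by VWF, NOS3 and EGFL7, and was taken again without them, a setting added after the values were seen. The other 18 markers summed to 34.8 CPM in MEL1 SCR, 22.8 and 23.7 CPM with KD1, and 29.9 CPM with KD2. All 3 MEL1 knockdown libraries were then below their control, with KD1 lower than KD2, as for KDR. In MEL1 SCR this sum was led by TEK, MYCT1 and ERG, at 9.81, 7.84 and 6.95 CPM. With KD1 TEK was at 4.96 and 3.5 CPM, MYCT1 at 2.99 and 2.27 CPM, and ERG at 2.46 and 1.58 CPM. RASIP1, the next highest, went the other way, from 3.27 CPM with SCR to 6.91 and 8.61 CPM with KD1. EGFL7 and NOS3, left out here, were also higher with KD1 than with SCR in MEL1. In H1 the 18 markers summed to 19.6 and 19.0 CPM with SCR, 18 and 18.1 CPM with KD1, 20.5 and 17.1 CPM with KD2, and 15.3 and 13.7 CPM with KD3. In H1, 5 of 6 knockdown libraries were below both controls, and the lowest were those of KD3, not of KD2 as for KDR.

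Of 20 endothelial markers tested, 0 were called over both lines by edgeR, with 10 higher and 10 lower, 4 at an unadjusted p under 0.05 and 1 called by DESeq2. Of all 24898 tested genes 3918 were at that unadjusted p, and DESeq2 called 1246. In the H1 average VWF was the 1 gene called of 20, where 7.16% of all tested genes were called. It fell by 0.64 (SE 0.12, adjusted p = 0.0163, edgeR), and 13 of 20 had negative values, with a list median of -0.42 beside 0.01 over all tested genes. At an unadjusted p under 0.05 there were 8 of 20, and DESeq2 called 2, against 5783 and 2696 of all 24898 tested genes. By hairpin edgeR called 4 of 20 with KD1 (3 lower, 1 higher), 1 with KD2 (higher) and 1 with KD3 (lower). Of all tested genes 11.1%, 1.54% and 2.98% were called in that order. With KD2, where KDR was lowest in H1, 11 of the 20 markers had positive values and 9 negative. The VWF call held in 18 of 19 alternatives and was lost without H1 SCR replicate 2 (log2 -0.59, adjusted p = 0.138, edgeR). NOS3, which makes nitric oxide in endothelium, was at 9.97 and 8.22 CPM in H1 SCR and 6.42 to 13.7 CPM with knockdown. In MEL1 NOS3 was at 15 CPM with SCR, 33.6 and 49.7 CPM with KD1, and 16.5 CPM with KD2, close to the control. From SCR to knockdown the mean sum of the 21 markers was 5.99 CPM lower in H1, where KDR was 80.5 CPM lower. The MEL1 difference of that sum, as SCR minus knockdown, was -21.2 CPM, where that of KDR was 29.4 CPM. Without MEL1 KD2 these were -4.11 CPM for the sum and 40.6 CPM for KDR. With VWF, NOS3 and EGFL7 left out the sum was lower with knockdown in both lines, by 9.36 CPM in MEL1, 11.6 CPM in MEL1 without KD2, and 2.17 CPM in H1. Because a CPM difference grows with the level of a gene, shares of the SCR mean are given as well. The 21 markers were at 89.8% in H1 and 120% in MEL1, beside 47.9% and 70.3% for KDR. The other 18 were at 88.8% in H1 and 73.1% in MEL1. Without MEL1 KD2 the MEL1 shares were 104% for the 21 markers, 66.8% for the 18 and 59.0% for KDR. The part of endothelial cells in the KDR level was not tested beyond these values.

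**Figure D3:**
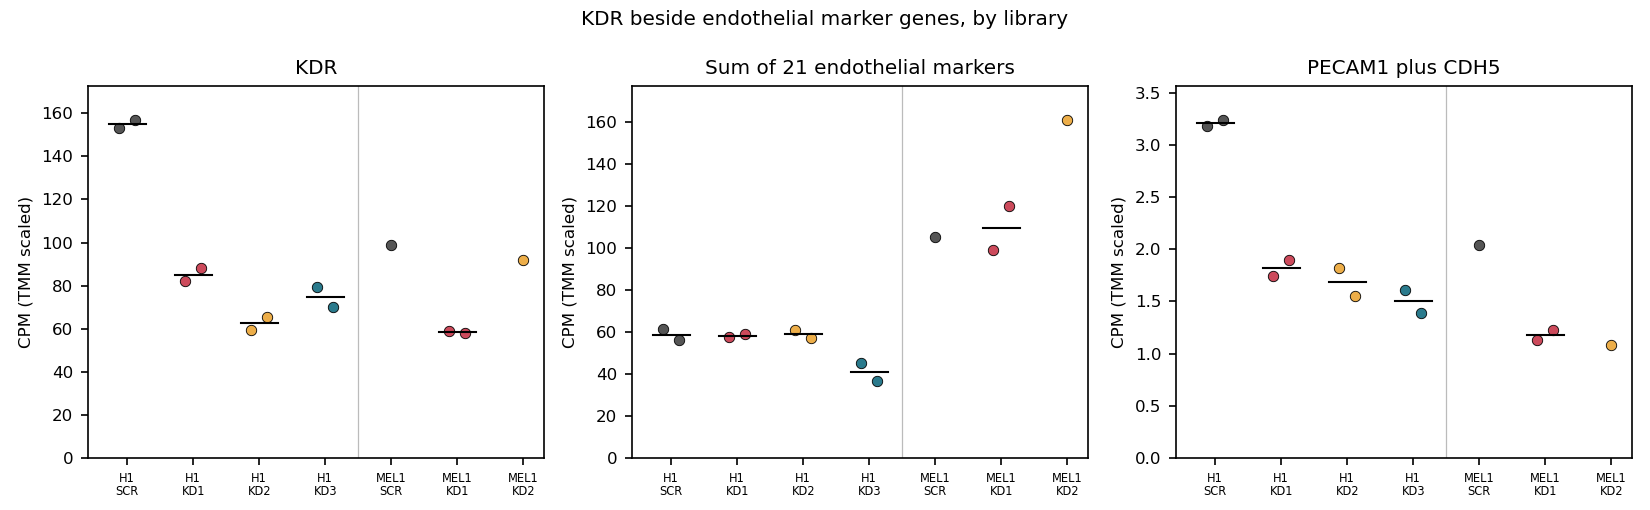
KDR, the sum of 21 endothelial markers, and PECAM1 plus CDH5 (CPM after TMM scaling, axes from 0) by library; points are libraries and lines are means of groups with 2 libraries. KDR and PECAM1 plus CDH5 are lower in every H1 knockdown library, whereas the sum of 21 markers with KD1 and KD2 in H1 lies at 57.2 to 61.1 CPM beside 56.1 and 61.3 CPM with SCR.

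**Figure D4:**
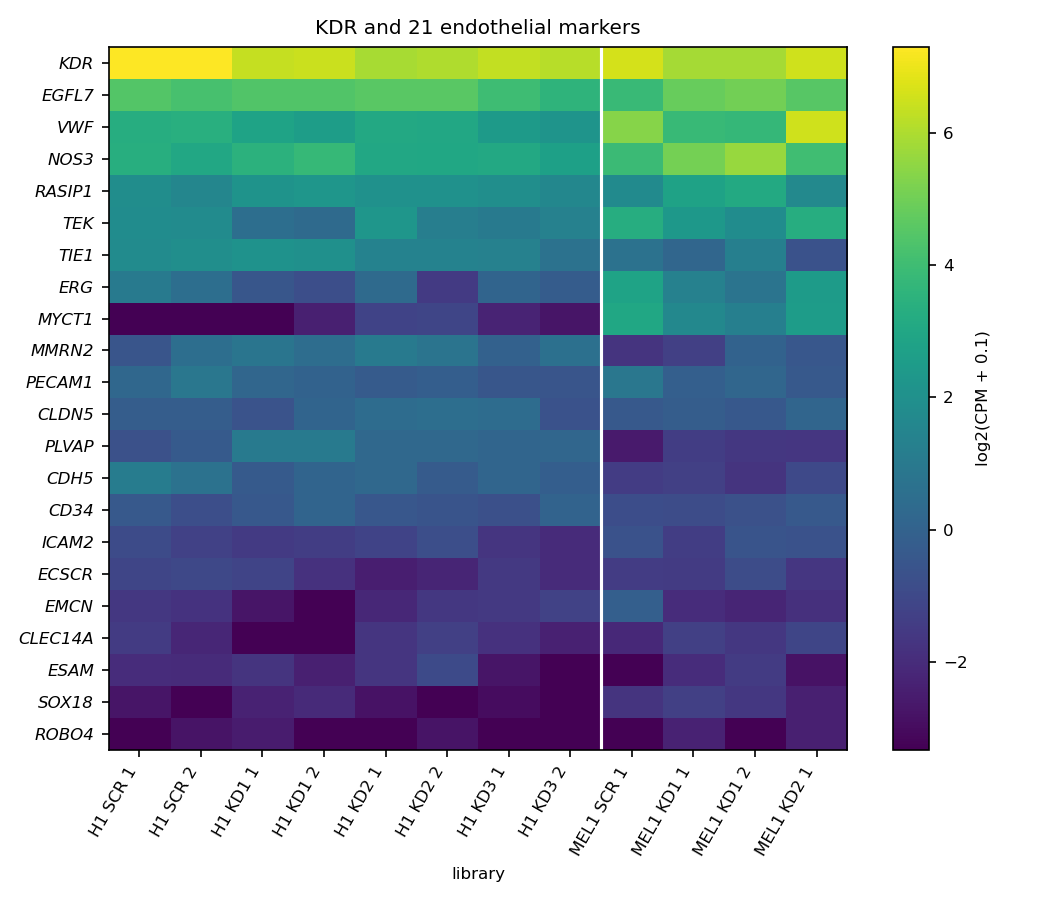
Level of KDR and the 21 endothelial markers in each library, as log2(CPM + 0.1) by colour, with genes ordered by mean level and a white line between H1 and MEL1. KDR is the brightest gene in every H1 library, and 10 to 14 of the 21 markers are below 1 CPM in each library.

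Among markers of the progenitors shared by blood and endothelium, RUNX1, a regulator of blood formation, was at 1.95 and 2.03 CPM in H1 SCR and 0.278 to 0.844 CPM with knockdown. It fell by 1.78 in the H1 average (SE 0.37, adjusted p = 0.0193, edgeR), as the 1 called of 10 tested, where 4.93% of all tested genes were called lower. That call was lost without H1 SCR replicate 1 (adjusted p = 0.0679) or replicate 2 (log2 -1.75, adjusted p = 0.136, edgeR). Over both lines 0 of the 10 were called by edgeR, 3 had an unadjusted p under 0.05 and DESeq2 called 0. Of all 24898 tested genes 3918 were at that unadjusted p, and DESeq2 called 1246. ETV2, which switches on the endothelial program, was at 1.82 and 0.894 CPM in H1 SCR and 0.768 to 1.90 CPM with knockdown. LMO2 was at 18.4 and 21.8 CPM in H1 SCR and 8.91 to 21.8 CPM with knockdown. GATA2, a blood and endothelial regulator, was at 0.347 to 1.18 CPM in H1 and at 4.83 to 12.3 CPM in MEL1, highest in KD2. Of 13 mesoderm markers tested, 0 were called in the H1 average by edgeR, 2 had an unadjusted p under 0.05 and DESeq2 called 1. In that comparison 5783 of all 24898 tested genes were at that unadjusted p, and DESeq2 called 2696. PDGFRB, a receptor kinase of pericytes, was at 22.9 and 18.6 CPM in H1 SCR and 16.9 to 27.1 CPM with knockdown. The mesoderm regulator TBX6 was at 2.03 to 7.71 CPM in H1 and PDGFRA at 4.30 to 7.26 CPM.

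Markers of other cell types moved in the same libraries. In the H1 average 7.16% of all tested genes were called, 2.23% higher and 4.93% lower. Of 9 pluripotency markers, 4 fell there: POU5F1 by 1.13 (adjusted p = 0.0191), NANOG by 0.96 (adjusted p = 0.0325), ZFP42 by 0.57 (adjusted p = 0.0163) and DNMT3B by 0.38 (adjusted p = 0.0491, edgeR). Without H1 SCR replicate 2 these values were -1.17, -1.06, -0.62 and -0.38, and all 4 calls were lost (adjusted p from 0.105 to 0.233, edgeR). Of the 19 alternatives, POU5F1 and ZFP42 passed in 17, NANOG in 14 and DNMT3B in 8. The summed level of the list was 1495 to 1590 CPM in H1 SCR and 1384 to 1630 CPM with knockdown, most of it from LIN28A at 827 to 1132 CPM. DPPA4 was at 160 to 277 CPM in H1.

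Of 10 neural progenitor markers, 6 rose and 1 fell in the H1 average. Those that rose were SIX3 by 0.66 (adjusted p = 0.00941), RAX by 0.93 (adjusted p = 0.0214), LHX2 by 0.65 (adjusted p = 0.0233), SOX2 by 0.46 (adjusted p = 0.0313), PAX6 by 0.77 (adjusted p = 0.039) and OTX2 by 0.44 (adjusted p = 0.0468, edgeR). FABP7 fell by 0.72 (adjusted p = 0.00947, edgeR). Without H1 SCR replicate 2 all 7 calls were lost (adjusted p from 0.115 to 0.35, edgeR), with SIX3 at 0.58, PAX6 at 0.52, OTX2 at 0.29 and FABP7 at -0.54. Of the 19 alternatives SIX3 and FABP7 passed in 18, RAX in 17, LHX2 in 16, and SOX2, PAX6 and OTX2 in 13. The summed level of the list was 1660 to 1715 CPM in H1 SCR and 1747 to 2330 CPM with knockdown. NES, an intermediate filament of neural progenitors, was at 431 to 626 CPM in H1.

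Of 11 trophoblast and amnion markers 1 was called in the H1 average, where 7.16% of all tested genes were called. It was IGFBP3, which rose by 1.47 (SE 0.16, adjusted p = 0.00168, edgeR), and by 1.35 without H1 SCR replicate 2. IGFBP3 was at 37.4 and 31.2 CPM in H1 SCR and 67.4 to 125 CPM with knockdown. The other 10 markers together, a sum added after the values were seen, were at 21.2 to 26.9 CPM in H1 SCR and 22.1 to 26.1 CPM with knockdown, so those groups overlapped. TFAP2A was the highest of the 10 at 14.3 to 21.9 CPM in H1, and GATA3 was at 0.744 to 2.47 CPM. The part of these cell types in the KDR and NRP2 levels was not tested.

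Of 30 genes of VEGF receptor signalling, 0 were called over both lines by edgeR, 2 had an unadjusted p under 0.05 and DESeq2 called 2. Of all 24898 tested genes 3918 were at that unadjusted p, and DESeq2 called 1246. In the H1 average 1 was called, where 7.16% of all tested genes were, namely GRB10, an adaptor that binds receptor kinases. It was at 143 and 138 CPM in H1 SCR and 86.9 to 116 CPM with knockdown, and fell by 0.48 (SE 0.08, adjusted p = 0.00808, edgeR), or by 0.51 without H1 SCR replicate 2 (adjusted p = 0.0799, edgeR). The list median was -0.01, beside 0.01 over all tested genes.

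Of the 12 semaphorins and plexins that work with neuropilins, 1 rose and 2 fell in the H1 average, where 2.23% of all tested genes were called higher and 4.93% lower. SEMA3C, a neuropilin ligand, fell by 1.06 (SE 0.25, adjusted p = 0.03), PLXNA4 fell by 0.62 (SE 0.14, adjusted p = 0.0228), and SEMA3B rose by 0.61 (SE 0.16, adjusted p = 0.0495, edgeR). Of 14 other angiogenic ligands and receptors, ANGPT2, a ligand of the endothelial receptor TEK, was at 5.30 and 7.06 CPM in H1 SCR and 1.45 to 3.4 CPM with knockdown. It fell by 1.41 (SE 0.21, adjusted p = 0.0051, edgeR), and NOTCH1 rose by 0.48 (SE 0.13, adjusted p = 0.0441, edgeR). Without H1 SCR replicate 2 these 5 calls were lost, with -0.73 for SEMA3C, -0.69 for PLXNA4, 0.51 for SEMA3B, -1.19 for ANGPT2 and 0.29 for NOTCH1 (adjusted p from 0.106 to 0.348, edgeR). Of the 19 alternatives ANGPT2 passed in 18, PLXNA4 in 15, SEMA3C in 12, and SEMA3B and NOTCH1 in 9. With the GC and length trend removed NOTCH1 was at 0.18 (adjusted p = 0.17, edgeR).

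Of the 6 neighbours of KDR on chromosome 4 that were tested, 2 fell in the H1 average, against 4.93% of all tested genes: SRD5A3 by 0.50 (SE 0.11, adjusted p = 0.0214) and TMEM165 by 0.59 (SE 0.11, adjusted p = 0.012, edgeR). KIT, the receptor kinase gene next to KDR, was at 18.8 and 19.0 CPM in H1 SCR and 17.6 to 35.4 CPM with knockdown, and was not called (adjusted p = 0.102, edgeR). Without H1 SCR replicate 2, 22 of the 23 list genes called in the H1 average lost the call, and IGFBP3 kept it, with 123 genes of the whole table called in place of 1783. Without any other single H1 library 4 to 12 of the 23 lost it.

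The genes most like KDR, by Pearson r of log2 CPM centred within each line over the 12 libraries, among the 10410 genes whose mean reached 10 CPM, were ENPP2 (r = 0.924), PKDCC (0.921), SERPINE2 (0.914), JAK1 (0.906) and ID2 (0.896). These values are a description, since the libraries share the knockdown and the controls. ENPP2, a secreted enzyme that makes a lipid signal, was at 40.9 and 35.7 CPM in H1 SCR and 11.5 to 17.2 CPM with knockdown. In MEL1 it had 34.1 CPM with SCR, 18.5 and 17.0 CPM with KD1, and 55.8 CPM with KD2. Over the 9 knockdown libraries r was 0.838 for ENPP2 and 0.476 for ID2.

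Across the 10 genes, median levels over the 12 libraries were 13.7 CPM per kb for VEGFB, 13.3 for KDR, 13 for NRP2 and 9.26 for VEGFA. They are per kb of the longest transcript, 12167 bases for VEGFA and 1380 bases for VEGFB, so the order depends on that choice. Without division by length VEGFA was at 53.0 to 506 CPM and VEGFB at 10.3 to 32.9 CPM. FLT4 was at 1.62, VEGFC at 1.11, FLT1 at 0.832 and NRP1 at 0.769 CPM per kb, with CDH5 at 0.186 and PECAM1 at 0.127. The ranges of the first 4 overlapped, from 4.36 to 41.6 CPM per kb for VEGFA and from 9.57 to 25.9 for KDR.

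Counted over libraries, 4 of the 10 genes, KDR, NRP2, PECAM1 and CDH5, had every H1 knockdown library below both H1 controls, against 11.7% of all tested genes, and 0 had all above, against 8.61%. In both lines at once this held for 2 of 10, KDR and PECAM1, against 3.96% of all tested genes, and 0 were above in both, against 3.18%. KDR was chosen for that pattern. In the test of the knockdown effect between lines 0 of the 9 genes other than KDR were called by edgeR, against 0.598% of all tested genes. NRP2 was the 1 gene at an unadjusted p under 0.05 and the 1 called by DESeq2. Of all 24898 tested genes 4282 were at that unadjusted p there, and DESeq2 called 751. For KDR the effect in MEL1 minus that in H1 was 0.65 (SE 0.16), given without a test. Between the lines at matched treatments 6 of 10 were called, against 49.1% of all tested genes. FLT1 and NRP2 were higher in MEL1 on average, NRP2 only through the 1 MEL1 KD2 library. KDR, FLT4, VEGFA and CDH5 were lower, CDH5 with a log2 difference of -1.87 (SE 0.34, adjusted p = 0.000782, edgeR).

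**Figure D5:**
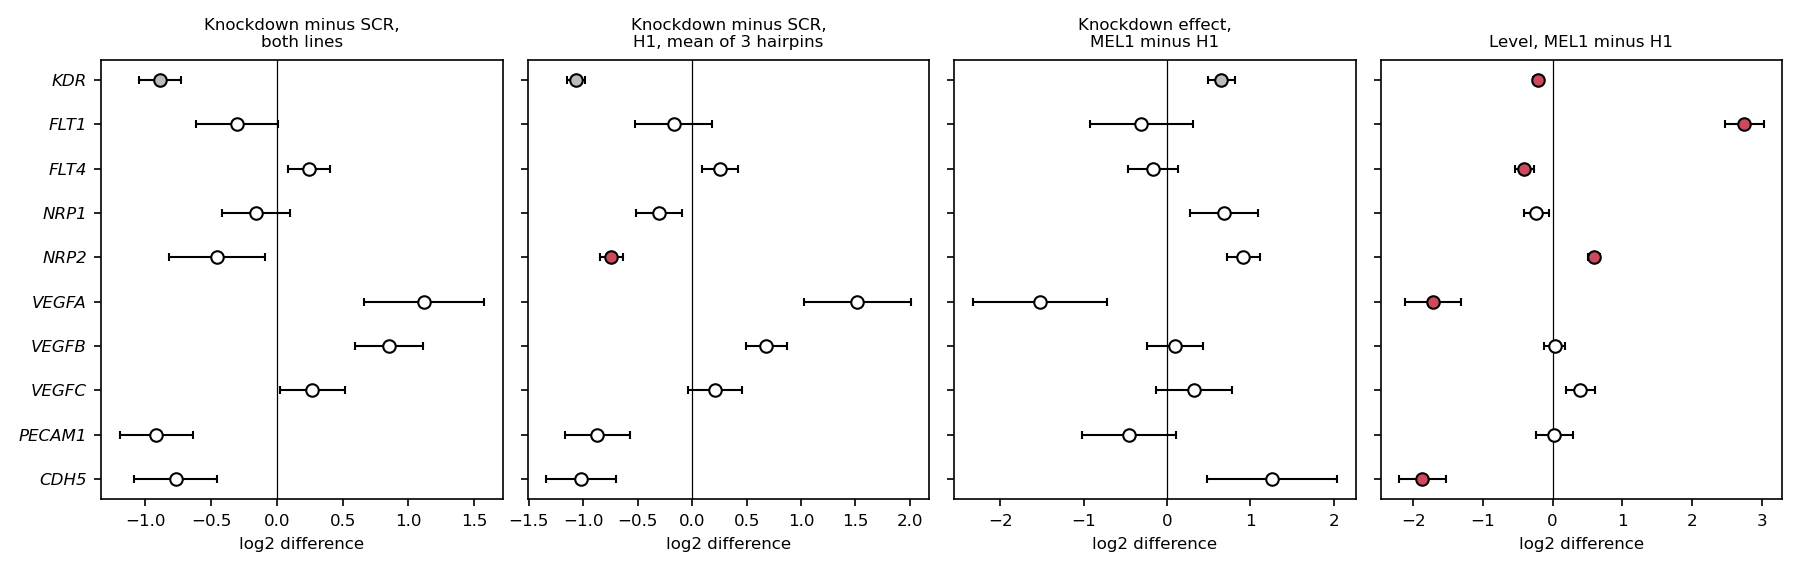
Log2 differences with standard errors (bars) for the 10 genes in 4 comparisons; red points passed an adjusted p of 0.05 in edgeR, white points did not, and grey points are KDR where its knockdown values chose it and no test is given. Of the genes tested, NRP2 is the 1 that passed in the H1 average, and 6 passed between the lines.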

How the data were processed

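For 12 libraries, estimated counts by Ensembl identifier were deposited, and 14.8% to 20.8% of the authors' values in a library were not whole. The submitters' processing notes name fastp and kallisto. Their roles, the build, the annotation and whether counting used strand are not given in the sources used here, so reads of overlapping or similar genes may be divided between them. Names were found for 59243 of 65969 identifiers. The members and lists were chosen with earlier results of these data known.

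Estimated counts were rounded, filtered with filterByExpr over the 7 groups and TMM scaled. The test was the robust quasi-likelihood test of edgeR 4.0.16, run in R 4.3.3 with limma 3.58.1, with Benjamini-Hochberg adjustment over 24898 genes and calls at an adjusted p under 0.05. The comparison over both lines had cell line as a covariate, and the others used 7 group means, so groups with 1 library borrow the spread of the others. MEL1 was not tested by itself against its 1 SCR library. The fits were tested on simulated data. Alternatives were other scalings and filters, DESeq2 1.42.0, a GC and length trend removed (known for 90.6% of tested genes), other models and leaving out each library.

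Named genes were METTL14, the members, list genes called over both lines or in the H1 average (at most 6 a list), the 3 most abundant of each cell type list and the 5 most like KDR. ADM, ANKRD37, CA9, NDRG1, SLC2A1, HIF1A, EPAS1, KIT, ROBO4, TEK, MYCT1, ERG, RASIP1, PGF and VEGFD were named after their values were seen.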

Additional observations from a re-analysis of the deposited data

Results flagged for a closer look

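NRP2 differed between the 3 hairpins in H1, with an adjusted p of 0.0079 in the edgeR F test. The mean level was 92.6 CPM with KD1, 46.3 CPM with KD2 and 75.5 CPM with KD3 (n = 2 each), and in MEL1 the KD2 library had the highest NRP2 level of the 12.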

How the results depend on the processing

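No paired analysis was possible because the labels give no replicate numbers that groups share. The cause of a moved count was not tested. Of 1157 alternative values for the 10 genes, 1068 were scored as the same, 43 passed the threshold newly, 27 lost it and 19 changed sign. The same meant an equal direction and side of the threshold, or for the hairpin F test the side only. For KDR between knockdown and SCR it meant an equal direction and a shift under the SD of its log2 level over the H1 knockdown libraries.

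Over both lines 53 genes were called, with no filter 80, at a mean of at least 1 CPM 87, with DESeq2 1246, with the GC and length trend removed 109, with group means 2478, from H1 libraries by themselves 175, and 11 (without H1 SCR replicate 1) to 280 (without MEL1 KD1 replicate 2) with 1 library left out. For the H1 average 1783 became 3256 with no filter, 2696 with DESeq2, 2934 with the GC and length trend removed, and 123 (without H1 SCR replicate 2) to 1842 with 1 library left out. For KD1 2758 became 4160 with no filter and 206 to 2766 with 1 library left out. For KD2 384 became 1745 with no filter, 1149 with DESeq2, 1048 with the trend removed and 64 to 400 with 1 left out. For KD3 741 became 2290, 1675 and 1859 in that order and 108 to 881 with 1 left out. Between hairpins 881 became 3384, 2224 and 1759 in that order and 154 to 1139 with 1 left out. For the difference between lines 149 became 88 with median-of-ratios scaling, 97 with upper-quartile scaling, 1369 with no filter, 95 at a mean of at least 1 CPM, 751 with DESeq2, 456 with the trend removed and 34 to 148 with 1 left out. That comparison and the level between lines could not be fitted without MEL1 SCR or MEL1 KD2.

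The sign changes were all in values not called in either setting. With the GC and length trend removed FLT4 over both lines was -0.076 and the VEGFB line difference of effect was -0.47, and with upper-quartile scaling the latter was -0.0060. With 1 library left out, NRP1 ran from -0.29 to 0.11 over both lines and from -0.59 to 0.075 in the H1 average. FLT1 ran from -0.52 to 0.094 in the H1 average and from -0.61 to 0.21 in the line difference of effect. VEGFB ran from -0.22 to 0.33 in that difference, from -0.048 to 0.13 in level between lines and from -0.048 to 0.48 with KD3. PECAM1 ran from -0.079 to 0.15 in level between lines. PECAM1 and CDH5 are limited by counts as low as 23 and 4, and MEL1 by its 1 SCR library.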
